A study of Mus musculus with 8 samples.

Results

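AMP deaminase 3 (Ampd3) and 9 other genes of purine salvage and breakdown were followed in YUMM5.2 cells, a mouse melanoma line, after treatment with 4-OI. The genes were taken by symbol from the deposited tables: the AMP deaminases Ampd3 and Ampd2, the adenosine enzymes Nt5e, Adk and Ada, the salvage enzymes Pnp, Hprt and Aprt, and the breakdown enzymes Xdh and Gda. All 10 symbols matched 1 row each, out of 55492 genes in the tables, and 9 of the 10 were abundant enough to be among the 13531 genes tested. The set was chosen by name with the difference of Ampd3 between 4-OI and DMSO already known, so the differences of these 10 genes are given as a description, with no p-value.

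The study sequenced polyA RNA in 8 libraries of the line, whose strain is labelled C57B/6J. In 4 of them, labelled DMSO and Control, the cells received the solvent DMSO, and in the other 4, labelled 4-OI and Itaconate-treated, they received a cell-permeable form of itaconate, in this field 4-octyl itaconate. Culture lasted 20 h in both groups, and the sources used here do not give a dose. The labels speak of 4 experiments per condition without saying that they were separate cultures, so p-values measure only how these samples vary, which may be technical variation.

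Purine nucleotides are made anew from small precursors or recovered from bases and nucleosides by salvage. AMP deaminases remove the amino group of AMP to give IMP, which links the adenine branch to the guanine branch and lowers AMP when ATP is being used up. AMP that is instead stripped of its phosphate becomes adenosine, which adenosine kinase returns to AMP and adenosine deaminase turns into inosine. Inosine and guanosine are cleaved to hypoxanthine and guanine, which are either rebuilt into nucleotides by HPRT or broken down through xanthine to uric acid. Mammals have 3 AMP deaminase genes: Ampd1 is the muscle form, Ampd2 the widely expressed form, and Ampd3 the form named for red blood cells.

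Library totals ranged from 22962963 to 31361677 counts. Transcripts that NRF2 is known to control were much higher with 4-OI, as shown by Nqo1, a quinone reductase, with 77.8 ± 1.94 CPM (SD, n = 4) in DMSO and 515 ± 6.42 CPM (SD, n = 4) in 4-OI. CPM here means counts scaled to a library's total times its TMM factor. Of the 7 melanocyte markers, 6 (Tyr, Tyrp1, Dct, Mlana, Pmel and Sox10) had at most 10 counts in every library, so of the melanocytic markers Mitf alone was expressed, at 6.42 CPM in DMSO and 9.98 CPM in 4-OI, and was called higher. Of 4 markers of a dedifferentiated state, Axl (898 CPM in DMSO and 783 CPM in 4-OI), Sox9 and Aqp1 were lower with 4-OI, at log2 fold changes of -0.20, -0.26 and -0.75, and Ngfr had at most 10 counts in every library. All 8 red blood cell markers, hemoglobin genes included, had at most 10 counts in every library, and their summed level was 0.228 to 0.582 CPM in DMSO and 0.248 to 0.448 CPM in 4-OI. The 6 skeletal muscle markers and 4 endothelial markers were likewise at most 10 counts in every library. Of 8 immune markers, 7 had at most 10 counts in every library, and Cd68 had 1.88 CPM in DMSO and 1.66 CPM in 4-OI. Of 4 keratinocyte markers, 3 had at most 10 counts in every library, and Krt10 had 2.22 and 2.39 CPM. Neither Cd68 nor Krt10 was called. Of 5 genes listed as fibroblast markers, 4 were expressed, at a summed 573 to 625 CPM in DMSO and 457 to 474 CPM in 4-OI, with Col1a1 (-1.39), Dcn (-1.39) and Col3a1 (-0.45) lower, Pdgfra higher and Lum at 0 in all libraries. The part of these shifts in the differences of the purine genes was not tested. In bulk RNA, more cells with a transcript and more transcript per cell cannot be told apart.

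RefSeq lists 3 start sites for Ampd3 on GRCm38.p6, each with a window from 250 bases before the start to 50 bases after it. The windows of starts 1 and 2 are shown because Ampd3 is the gene on which the comparison turns. The window of start 3 (chr7:110773386-110773685) was searched but is not printed. Beside them is the window of Srxn1 (sulfiredoxin), an NRF2 target among the closest patterns to Ampd3. Srxn1 was picked, after the search, as an example of a window with matches. Both strands were searched for TGACNNNGC, the core of the antioxidant response element that NRF2 binds, for TGACTCA, the AP-1 site, and for CACGTG, the E-box. Capitals mark every match to any of these, on either strand, and the sequences read 5′ to 3′ on the plus strand of chr7:110768372-110768671, chr7:110772354-110772653 and chr2:152105274-152105573.
Ampd3 start 1: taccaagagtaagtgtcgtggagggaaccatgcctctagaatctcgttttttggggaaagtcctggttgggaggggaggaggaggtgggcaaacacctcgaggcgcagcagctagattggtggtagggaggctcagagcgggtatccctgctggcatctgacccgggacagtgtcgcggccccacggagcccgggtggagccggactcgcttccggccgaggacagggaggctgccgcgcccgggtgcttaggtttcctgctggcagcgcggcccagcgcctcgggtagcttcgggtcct
Ampd3 start 2: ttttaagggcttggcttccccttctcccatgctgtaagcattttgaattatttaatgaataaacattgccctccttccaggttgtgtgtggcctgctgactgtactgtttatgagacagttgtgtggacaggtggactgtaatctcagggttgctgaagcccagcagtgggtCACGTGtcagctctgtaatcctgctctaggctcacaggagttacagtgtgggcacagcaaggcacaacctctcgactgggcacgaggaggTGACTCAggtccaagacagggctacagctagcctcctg
Srxn1: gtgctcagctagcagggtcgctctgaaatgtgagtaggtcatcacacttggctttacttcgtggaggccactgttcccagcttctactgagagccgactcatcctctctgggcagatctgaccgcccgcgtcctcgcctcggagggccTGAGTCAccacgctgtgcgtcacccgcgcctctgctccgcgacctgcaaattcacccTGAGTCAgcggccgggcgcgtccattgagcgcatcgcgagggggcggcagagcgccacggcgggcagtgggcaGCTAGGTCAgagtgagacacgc

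None of the 3 Ampd3 windows held TGACNNNGC, which says only that these letters are not in these windows. The second window held CACGTG 78 bases before the start and TGACTCA 12 bases after it, and the other windows held none of the motifs. Of all 32851 windows in the table, 12.4% held TGACNNNGC, 5.2% TGACTCA and 7.15% CACGTG. Among the 13 windows of the 9 members found in the table, TGACNNNGC occurred in 1, at the second start of Adk, and TGACTCA in 2, those of Ampd3 and Aprt. NRF2 targets differed among themselves in this window: that of Srxn1 held 1 TGACNNNGC match and 2 TGACTCA matches, that of Gclm 1 TGACNNNGC match, and those of Nqo1 and Slc7a11 none of the motifs. A match is a string of letters, not a bound site.

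Ampd3 (ENSMUSG00000005686, GRCm38 chromosome 7, 110768206 to 110812405, plus strand) had 91, 102, 79 and 99 counts in DMSO replicates 1 to 4 and 1020, 1011, 1137 and 1080 counts in 4-OI replicates 1 to 4. Scaled to depth, these were 3.46, 4.24, 3.47 and 3.17 CPM against 39.4, 35.8, 37.8 and 34.6 CPM. Every 4-OI library lay far above every DMSO library, with no overlap. The log2 fold change was 3.37 (SE 0.07), a 10.3-fold difference, and leaving out any library in turn moved it only between 3.31 and 3.46. By size of increase Ampd3 ranked 8 among all 13531 genes tested and 2 among the 10066 genes at a mean of 5 CPM or more.

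Across the 9 members tested, 4 (Ampd3, Ampd2, Nt5e and Xdh) were called higher by edgeR at a Benjamini-Hochberg adjusted p under 0.05 and 5 were not called. In the same comparison 19.3% of all genes tested were called higher and 19.6% lower, or 38.8% in either direction, and since the contrast was known when the set was chosen, nothing is read from the members' count. The same 4 members were those whose CPM did not overlap between groups, a state found in 35.4% of all genes tested. The median log2 fold change was 0.10 for the members tested, 0.07 without Ampd3 and 0.00 for all genes tested. Ampd2 was not called by limma on log2(TPM + 1), at a log2 fold change of 0.13.

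**Figure D1:**
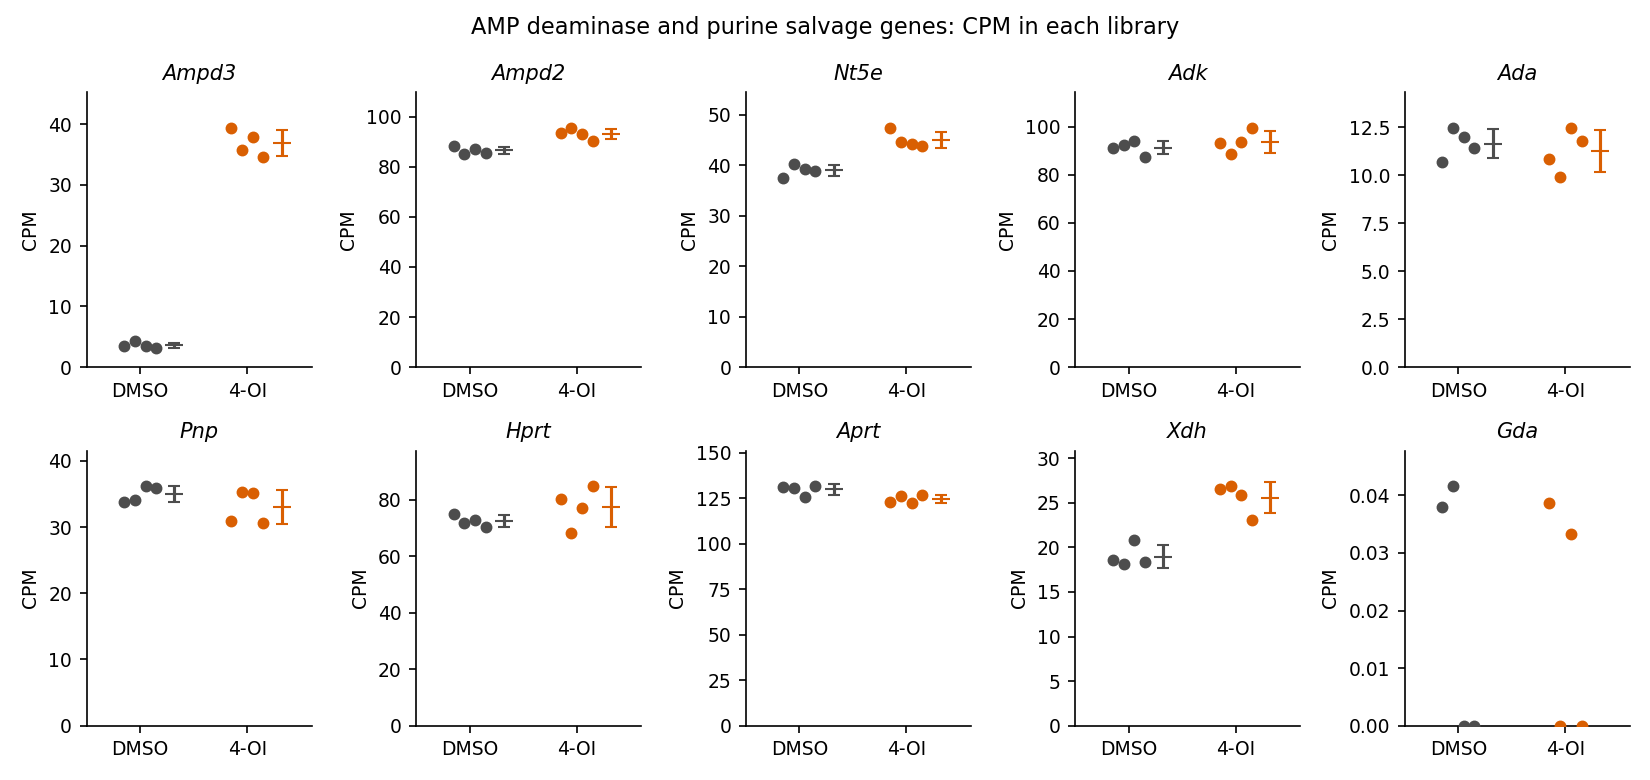
Expression of the 10 genes in CPM (linear axis from 0), 1 point per library, with 4 DMSO libraries in grey and 4 4-OI libraries in orange; the bar beside each group is the mean with its SD, omitted for Gda, which had at most 1 count per library. Ampd3 moves from 3.17 to 4.24 CPM up to 34.6 to 39.4 CPM, Ampd2, Nt5e and Xdh shift by less without overlap, and the remaining genes overlap between groups.

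Ampd2, the other AMP deaminase expressed in these cells (chromosome 3, 108074062 to 108086651, minus strand), had 88.3, 84.9, 87.3 and 85.5 CPM in DMSO and 93.4, 95.5, 93.1 and 90.3 CPM in 4-OI. In CPM the groups did not overlap, but the difference was small, a log2 fold change of 0.11 (SE 0.03), and 54.1% of all genes tested differed by more. In TPM the groups did overlap, at 37.8 to 41.9 in DMSO and 39.8 to 44.1 in 4-OI. Ampd1, the muscle gene, had 4 to 5 counts per DMSO library and 6 to 13 per 4-OI library, which kept it out of the fit across genes. Its level, computed on library totals without the TMM factor, was 0.172 ± 0.0130 and 0.322 ± 0.0934 CPM (SD, n = 4). A two-sided exact permutation test gave p = 0.0286, which is the smallest possible with 4 libraries a group, and an adjusted p = 0.229 over the 12 low-count genes compared in this way (Benjamini-Hochberg).

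Levels of different genes can be compared per length, as TPM. In DMSO, Ampd3 made up 5.59%, 6.00%, 4.83% and 3.25% of the TPM of the 3 AMP deaminase genes, and in 4-OI 35.0%, 34.6%, 34.6% and 34.5%. In TPM the share was thus low in every DMSO library. On that scale it was close to the same value in all 4 libraries with 4-OI, 34.7 ± 0.233% (SD, n = 4). Summed over the family, the level was 41.2 ± 2.24 TPM (SD, n = 4) in DMSO and 65.8 ± 3.13 TPM (SD, n = 4) in 4-OI, a ratio of 1.595, with ranges of 39.8 to 44.6 and 61.1 to 67.7 TPM. Without any length correction, as a share of counts, Ampd3 was 3.97% in DMSO and 28.3% in 4-OI. In counts the 4-OI libraries were less close to each other than in TPM. Ampd3 and Ampd2 had 1020 and 2418, 1011 and 2696, 1137 and 2800, and 1080 and 2819 counts in 4-OI replicates 1 to 4.

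The TPM of Ampd3 in DMSO varied more than its counts did. TPM was 2.49, 2.43, 1.94 and 1.29 in DMSO replicates 1 to 4. Replicate 4, with the lowest TPM, had 99 counts in the deepest DMSO library, and its 3.17 CPM was also the lowest in DMSO. Dividing counts by FPKM and library total gives the effective length that the authors' quantification had assigned to the gene, and this was 1923, 2379, 2423 and 3323 bases in the DMSO libraries. In 4-OI it was 2307, 2115, 2216 and 2247 bases, a range that lies inside that of DMSO. For Nt5e the same length stayed between 3658 and 3688 bases in all 8 libraries, and for Ampd2 between 2915 and 3134 bases. The GENCODE annotation (release M21) holds 8 transcripts of Ampd3, from 345 to 4094 bases long, of which 6 are protein-coding. Transcript-level values were not analysed here, and with 79 to 102 counts per DMSO library, how reads were divided among them was not tested.

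**Figure D2:**
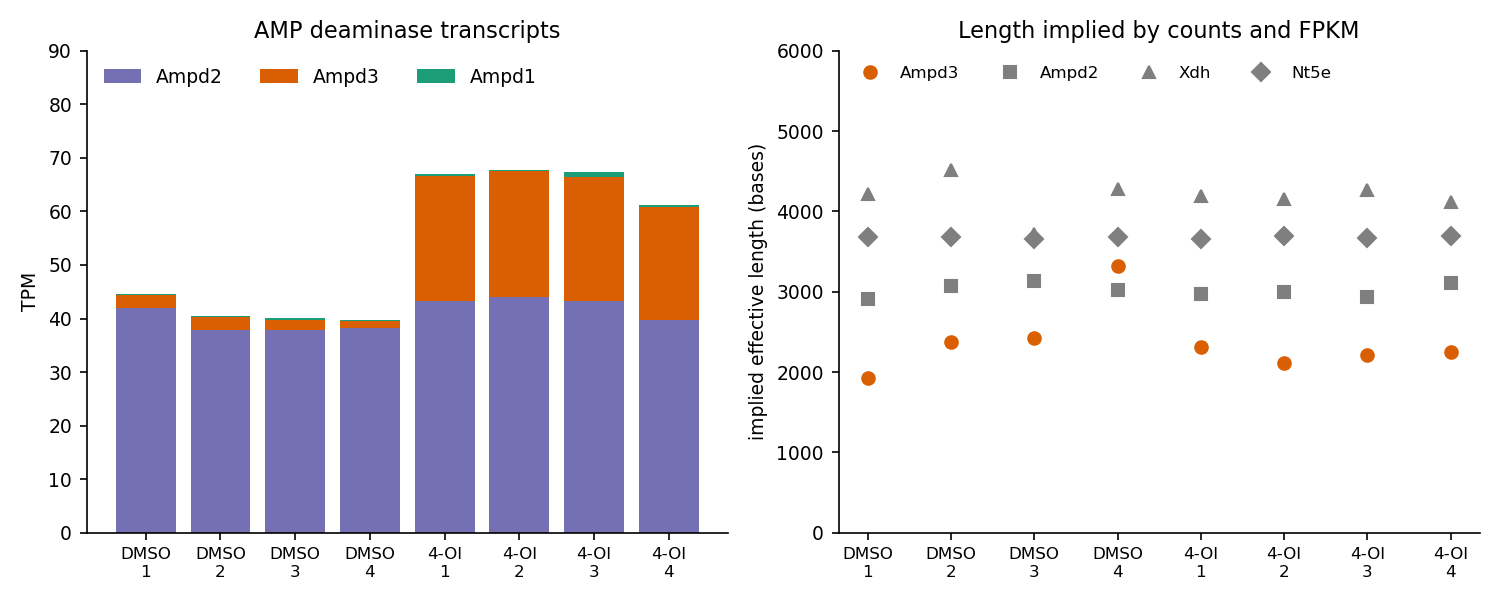
Left, stacked TPM of Ampd2, Ampd3 and Ampd1 in each of the 8 libraries (linear axis from 0), and right, the effective length in bases implied by counts and FPKM for Ampd3 (orange), Ampd2, Xdh and Nt5e (grey). The stack reaches 39.8 to 44.6 TPM in DMSO and 61.1 to 67.7 TPM in 4-OI, and the length of Ampd3 spreads from 1923 to 3323 bases in DMSO.

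Nt5e (chromosome 9, 88327197 to 88372092, plus strand) encodes CD73, the surface enzyme that turns extracellular AMP into adenosine. It had 37.5, 40.2, 39.3 and 38.9 CPM in DMSO and 47.4, 44.6, 44.1 and 43.9 CPM in 4-OI. No DMSO library reached the lowest of the 4-OI libraries, and the log2 fold change was 0.21 (SE 0.04). Adk (chromosome 14, 21052574 to 21448569), adenosine kinase, ranged from 87.5 to 94.2 CPM in DMSO and from 88.4 to 99.5 CPM in 4-OI, a log2 fold change of 0.04 (SE 0.03). Ada (chromosome 2, 163726584 to 163750239), adenosine deaminase, ranged from 10.7 to 12.5 CPM and from 9.92 to 12.4 CPM, with a log2 fold change of -0.04 (SE 0.07). For both of these adenosine-consuming enzymes the groups overlapped, and the sign for Ada depended on the library left out, with values between -0.10 and 0.01. The sign for Adk turned on log2(TPM + 1), where it was -0.04 by limma.

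Among the salvage enzymes, Pnp (chromosome 14, 50931082 to 50965237), which cleaves inosine and guanosine, ranged from 33.8 to 36.2 CPM in DMSO and from 30.7 to 35.4 CPM in 4-OI. Its log2 fold change was -0.08 (SE 0.05). Its locus overlaps on the same strand with Pnp2, at 4 to 15 counts per library, and with the predicted gene Gm49342, at 587 to 838 counts, so its level depends on how reads were divided. Hprt (chromosome X, 52988137 to 53021659), which rebuilds IMP and GMP, ranged from 70.3 to 75.1 CPM and from 68.0 to 84.7 CPM, with a log2 fold change of 0.10 (SE 0.05). The low value of 68.0 CPM belonged to 4-OI replicate 2, and without that library the log2 fold change was 0.15 and Hprt was called. Aprt (chromosome 8, 122574635 to 122576909), which rebuilds AMP from adenine, ranged from 125.7 to 131.5 CPM and from 122.6 to 126.6 CPM, with a log2 fold change of -0.06 (SE 0.03). Aprt was called lower without DMSO replicate 3 or without 4-OI replicate 4, at log2 fold changes of -0.07 in both cases.

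Xdh (chromosome 17, 73883895 to 73950196, minus strand), the enzyme that oxidises hypoxanthine and xanthine to uric acid, had 18.5, 18.2, 20.8 and 18.3 CPM in DMSO and 26.5, 26.9, 25.8 and 23.1 CPM in 4-OI. The groups did not overlap, and the log2 fold change was 0.43 (SE 0.06), or 1.35-fold. Of all genes tested, 10.8% differed by more than Xdh. Gda, guanine deaminase (chromosome 19, 21391307 to 21473445), had 1, 1, 0 and 0 counts in DMSO and 1, 0, 1 and 0 in 4-OI, so no level or fold is given. A count of 0 allows up to 3 counts, or 0.0961 to 0.132 CPM depending on the library, and this limit covers counting error only.

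Per length, Aprt was the most abundant of the set in both groups, at 334 ± 5.83 TPM (SD, n = 4) in DMSO and 322 ± 2.94 TPM (SD, n = 4) in 4-OI. Hprt and Adk followed and could not be told apart, with overlapping ranges of 96.2 to 104.6 and 89.9 to 99.7 TPM in DMSO. Pnp and Ampd2 came next, also with overlapping ranges, at 39.7 ± 1.96 and 38.9 ± 2.00 TPM (SD, n = 4). Below them in DMSO stood Nt5e at 14.5, Ada at 11.5, Xdh at 6.24 and Ampd3 at 2.04 TPM, each with a range apart from the next. With 4-OI, Ampd3 stood at 22.8 ± 1.14 TPM (SD, n = 4), below Ampd2 at 42.6 and Pnp at 37.7 TPM, whose ranges overlapped, and above Nt5e at 16.8, Ada at 11.2 and Xdh at 8.40 TPM, again with ranges apart. Ampd3 was therefore the lowest member with detectable expression in DMSO and the sixth of the 10 in 4-OI.

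The genes with the most similar pattern to Ampd3 were looked for among 10057 others at a mean of 5 CPM or more, by the root mean square distance between mean-centred log2(CPM + 1) values over the 8 libraries. The closest was Hmox1, heme oxygenase, at a distance of 0.11, with 36.8 ± 2.58 CPM in DMSO and 284 ± 2.14 CPM in 4-OI (SD, n = 4). Next came Aldh3a1, an aldehyde dehydrogenase, at 0.16, Srxn1 at 0.17, Nqo1 at 0.20 and Angptl4, an inhibitor of lipoprotein lipase, at 0.27. Their log2 fold changes were 2.95 for Hmox1, 3.31 for Aldh3a1, 2.79 for Srxn1, 2.73 for Nqo1 and 2.64 for Angptl4. By this measure Aldh3a1, not Hmox1, was the nearest of the 5 to Ampd3, at 3.37. Adding 1 to CPM shrinks the difference of Ampd3, at 3.59 CPM in DMSO, more than those of the 5. Whether their order holds without it was not tested. The 8 libraries fall into 2 groups, so the likeness is mostly that of a large increase from DMSO to 4-OI.

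The neighbours of Ampd3 on chromosome 7 differed far less. Of 13 other protein-coding genes tested whose start lay within 1100 kb, 3 were called higher, 2 lower and 8 were not called. Their log2 fold changes ran from -0.29 to 0.14, and 38.8% of all genes tested were called. Past that limit, downstream of Ampd3, every tested gene that was looked up was called. Usp47 was higher (0.07), and Dkk3 (-0.49), Mical2 (-0.34), Parva (-0.23) and Tead1 (-0.24) were lower. On the side of the start, Adm, the vasodilator peptide adrenomedullin, had a log2 fold change of -0.18 (adjusted p = 0.0956, edgeR) and Sbf2 one of -0.08 (adjusted p = 0.0547, edgeR). Sbf2 was called without DMSO replicate 1 or 2, at log2 fold changes of -0.10. On the other side, Rnf141 rose by a log2 fold change of 0.14 (adjusted p = 0.0105, edgeR), from 37.9 ± 1.04 to 41.8 ± 2.19 CPM (SD, n = 4), and Lyve1 had at most 1 count per library. Rnf141 lies on the opposite strand and overlaps the end of Ampd3, and since the sources used here do not say whether the counting used strand, whether reads were shared was not tested. On log2(TPM + 1) limma did not call Rnf141 (adjusted p = 0.377, limma).

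**Figure D3:**
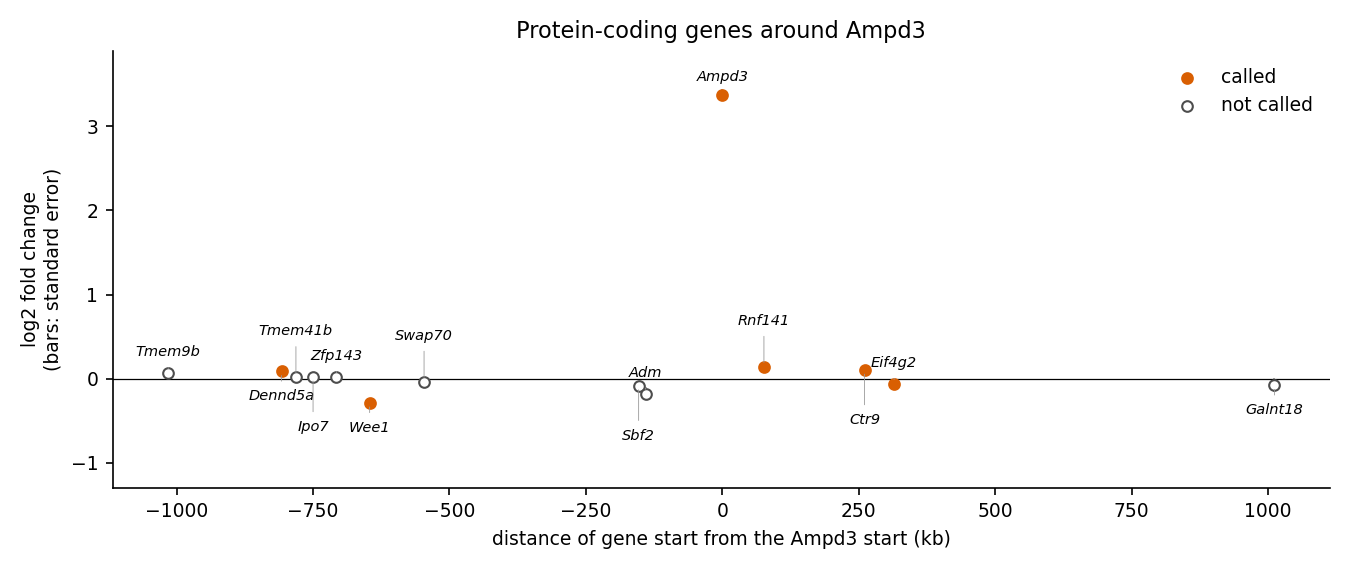
Log2 fold change of 4-OI against DMSO with its standard error (vertical axis) for tested protein-coding genes whose start lies within 1100 kb of the Ampd3 start, against the distance between the starts in kb, with called genes filled and the others open. Ampd3 stands at 3.37, Rnf141 at 0.14 and Adm at -0.18.

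The rest of purine metabolism was covered by 12 lists drawn up by function, with 104 further genes in the tables, of which 77 could be tested. Of these, 19 were higher, 22 lower and 36 not called at the same threshold. The called share was 53.2%, beside 38.8% of all genes tested, and the median log2 fold change was 0.01, beside 0.00. Neither this share nor those of the single lists below were matched to all genes tested by expression level. Of the called genes, Aox1, Mocos and Mocs1 changed by 1.5-fold or more and the others by less. On log2(TPM + 1), limma did not call 13 of these genes (adjusted p = 0.0622 to 0.765, limma): Gart, Prps1, Prpsap2, Adssl1, Gmpr2, Prkag2, Dck, Samhd1, Rrm2, Abcg2, Mthfd2l, Shmt1 and Shmt2. DESeq2 did not call Gmpr2, Nt5m, Prkag2 or Abcg2 (adjusted p = 0.0628 to 0.137), and with scaling by library totals edgeR did not call Prkag2, Abcg2 or Shmt2 (adjusted p = 0.059 to 0.0736) but called Ppat, Nt5c, Nt5c3 and Ahcyl2. Without the filter on low counts, the calls of Nt5m, Prkag2, Abcg2 and Shmt2 ended (adjusted p = 0.0522 to 0.129, edgeR).

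The list of urate handling and molybdenum cofactor genes stood beside Xdh, which needs that cofactor, and 3 of its 8 tested genes were higher and 1 lower, so that 50% were called beside 38.8% of all genes tested. Aox1, an aldehyde oxidase that shares its ancestry and cofactor with Xdh, had 8.94, 8.11, 8.86 and 8.74 CPM in DMSO and 31.1, 30.96, 30.0 and 27.4 CPM in 4-OI. It rose by a log2 fold change of 1.78 (SE 0.06, adjusted p = 2.9e-15, edgeR). Mocos, the sulfurase that activates the cofactor in both Xdh and aldehyde oxidases, rose from 3.24 ± 0.188 to 7.01 ± 0.454 CPM (SD, n = 4), that is a log2 fold change of 1.11 (adjusted p = 4.66e-09, edgeR). Mocs1, the first enzyme of cofactor synthesis, rose from 19.5 ± 1.14 to 30.7 ± 0.961 CPM (SD, n = 4), that is a log2 fold change of 0.66 (adjusted p = 1.58e-09, edgeR). In all of these genes the groups were fully separated.

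The later steps of cofactor synthesis did not pass the test: Mocs2 had a log2 fold change of 0.07 (adjusted p = 0.28, edgeR), Mocs3 one of 0.01 (adjusted p = 0.931, edgeR) and Gphn, gephyrin, one of 0.01 (adjusted p = 0.874, edgeR). The urate exporter Abcg2 was lower by a log2 fold change of -0.15 (adjusted p = 0.0345, edgeR), a call that ended in 5 of 8 fits leaving out a library (replicates DMSO 2, DMSO 4, 4-OI 1, 4-OI 2 or 4-OI 4), with adjusted p = 0.0699 to 0.119, edgeR. Slc2a9, a urate carrier, had 0.431 and 0.616 CPM and was not called. The urate-degrading enzyme gene Uox had 12 counts over the DMSO libraries and 4 over the 4-OI libraries (exact permutation p = 0.0571, adjusted p = 0.229).

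**Figure D4:**
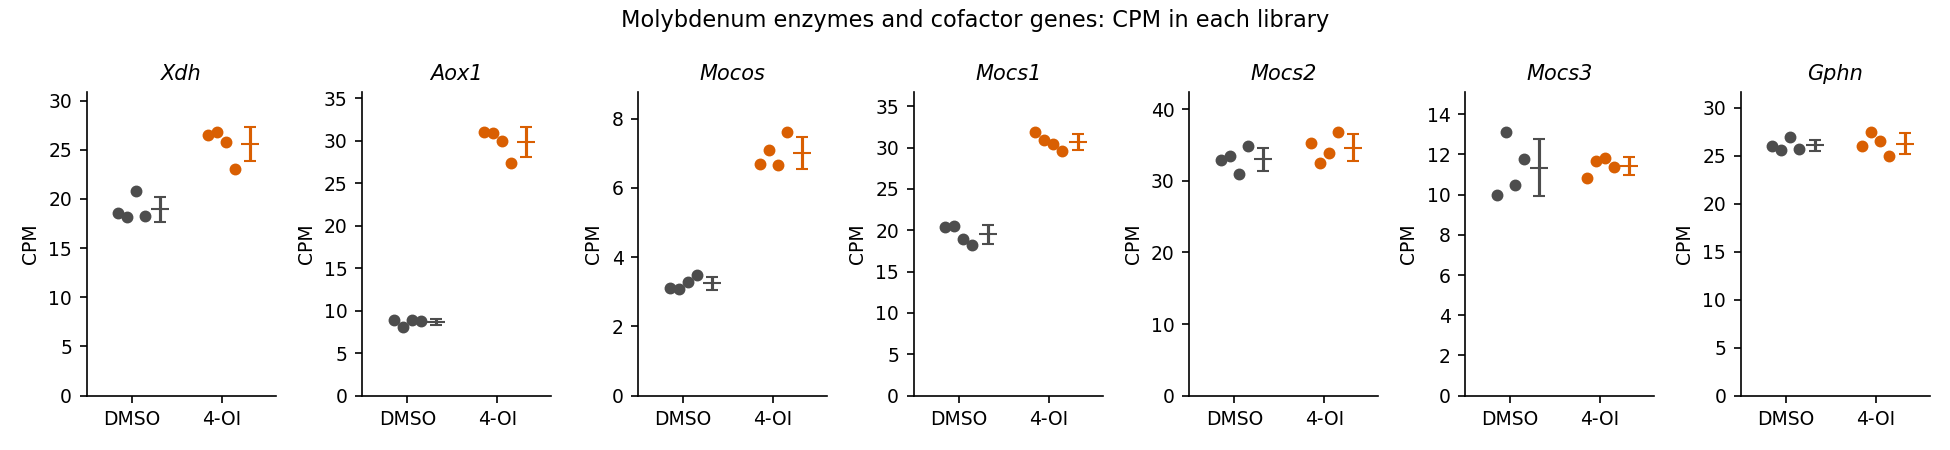
CPM of Xdh, Aox1 and the cofactor genes Mocos, Mocs1, Mocs2, Mocs3 and Gphn, 1 point per library (linear axes from 0), with the mean and SD of the 4 libraries beside each group. Xdh, Aox1, Mocos and Mocs1 separate without overlap, at log2 fold changes of 0.43, 1.78, 1.11 and 0.66, while Mocs2, Mocs3 and Gphn overlap.

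De novo synthesis of IMP went both ways, with 3 of 11 tested genes higher, 4 lower and 4 not called. The called share was 63.6%, beside 38.8% of all genes tested. Paics, which carries out consecutive middle steps of the pathway, rose from 288 ± 1.32 to 358 ± 9.44 CPM (SD, n = 4), that is a log2 fold change of 0.31 (adjusted p = 2.06e-09, edgeR), and Atic, the last enzyme before IMP, by 0.08. Prpsap2, which associates with the synthetases that make the ribose donor PRPP, rose by 0.22. The lower genes were Prps1l3 (-0.17), Prps1 (-0.11), Gart (-0.10) and Pfas (-0.10). The calls of Gart and Prps1 ended in fits leaving out a library (Gart without any 1 of DMSO 1, DMSO 4 or 4-OI 3, adjusted p = 0.056 to 0.0627, edgeR, and Prps1 without any 1 of DMSO 2, DMSO 4 or 4-OI 1, adjusted p = 0.055 to 0.0955, edgeR). Ppat, the committed step, was not called (0.07, adjusted p = 0.0985, edgeR) but was so without DMSO replicate 1 (0.09, adjusted p = 0.0435, edgeR).

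At the IMP branch point, where the product of AMP deaminase enters, 2 of 7 tested genes were higher and 1 lower. That made 42.9% called, beside 38.8% of all genes tested. Impdh2, which commits IMP to guanine nucleotides, fell by 0.16 in log2 units (adjusted p = 0.00018, edgeR), from 223 ± 3.798 to 199 ± 9.67 CPM (SD, n = 4). On the adenine side, Adssl1, an adenylosuccinate synthase isoform known from muscle, rose by 0.27 (adjusted p = 0.00724, edgeR) at 8.59 and 10.4 CPM. The more abundant Adss, at 183 CPM in DMSO, had a log2 fold change of 0.02 and was not called. Gmpr2, which returns GMP to IMP, was higher by 0.14, and its call ended without any 1 of DMSO 1, DMSO 2, 4-OI 2 or 4-OI 4 (adjusted p = 0.0553 to 0.0836, edgeR).

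AMP is also made and removed by adenylate kinases and sensed by AMP-activated protein kinase. Among 7 tested adenylate and guanylate kinases, 2 were higher and 4 lower (85.7% called, beside 38.8% of all genes tested). Ak1, the cytosolic adenylate kinase, rose by a log2 fold change of 0.39 (adjusted p = 4.05e-07, edgeR) and Guk1, guanylate kinase, by 0.17. Ak4, a mitochondrial isoform, fell by 0.41 (adjusted p = 1.04e-08, edgeR) and Ak5 by 0.32 (adjusted p = 1.29e-07, edgeR), with a smaller fall of Ak6 (-0.11).

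Of 6 tested subunits of AMP-activated protein kinase, Prkaa1, the main catalytic subunit here, rose by 0.28 (adjusted p = 4.21e-07, edgeR), from 143 ± 3.06 to 173 ± 8.07 CPM (SD, n = 4), and the scaffold subunit Prkab2 by 0.21. The AMP-binding subunit Prkag2 was lower by -0.13 (adjusted p = 0.0393, edgeR), a call that ended without any 1 of DMSO 1, DMSO 4, 4-OI 1, 4-OI 2 or 4-OI 3 (adjusted p = 0.0699 to 0.132, edgeR) and whose sign turned on log2(TPM + 1), where it was 0.03. The other 3 subunits tested were not called, so that 50% of the 6 were called, beside 38.8% of all genes tested.

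Of the genes tested besides Nt5e, 20% of the intracellular 5'-nucleotidases and 28.6% of the enzymes of extracellular nucleotide breakdown were called, beside 38.8% of all genes tested. Among 5 tested intracellular 5'-nucleotidases, the mitochondrial Nt5m was higher by 0.14 (adjusted p = 0.0341, edgeR), a call that ended in 5 of 8 fits leaving out a library (any 1 of DMSO 3, DMSO 4, 4-OI 1, 4-OI 2 or 4-OI 4, adjusted p = 0.0528 to 0.1, edgeR). Nt5c (0.11) and Nt5c3 (0.11) missed the threshold and were called without DMSO replicate 4 and DMSO replicate 2, at 0.15 in both cases (adjusted p = 0.0371 and 0.0286, edgeR). Among 7 tested enzymes of extracellular nucleotide breakdown, Entpd5, a nucleoside diphosphatase of the secretory pathway, rose by 0.47 (adjusted p = 1.12e-06, edgeR), and Acpp, an acid phosphatase, fell by 0.30 in log2 units (adjusted p = 7.16e-05, edgeR). Entpd7 (-0.14) was called without DMSO replicate 4 (-0.21, adjusted p = 0.047, edgeR). Entpd1, the ectonucleotidase CD39 that supplies AMP to CD73, had 6 counts over the 4 libraries of each group.

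Of the adenosine receptors, Adora2b was tested, at 1.03 ± 0.0792 and 0.860 ± 0.0769 CPM (SD, n = 4), and was not called (-0.26, adjusted p = 0.341, edgeR). Adora2a had 21 and 30 counts over the groups (exact permutation p = 0.371, adjusted p = 0.637), and Adora1 and Adora3 had at most 2 counts over each group. Among transporters, the equilibrative nucleoside carrier Slc29a1 was the most abundant, at 125 ± 0.843 and 122 ± 3.75 CPM (SD, n = 4), and was not called. The lysosomal carrier Slc29a3 rose by 0.17 (adjusted p = 0.00446, edgeR), and the nucleobase carrier Slc43a3 fell by 0.28 in log2 units (adjusted p = 1.95e-05, edgeR). The concentrative carriers Slc28a1, Slc28a2 and Slc28a3 had at most 2 counts over each group.

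In the list of other salvage and deoxypurine enzymes, 2 of 12 tested genes were higher and 5 lower. That is 58.3% called, beside 38.8% of all genes tested. Mtap, whose product adenine feeds Aprt, rose by 0.09 (adjusted p = 0.00461, edgeR), and Rrm2b, a ribonucleotide reductase subunit known as a p53 target, by 0.25. The replication-linked reductase subunits Rrm1 (-0.15) and Rrm2 (-0.10) fell, together with the dNTP hydrolase Samhd1 (-0.13), deoxycytidine kinase Dck (-0.12) and Ahcyl1 (-0.10). Ahcyl2 (0.14) missed the threshold and was called without any 1 of DMSO 2 or 4-OI 2 (0.17 to 0.18). The folate enzymes that supply carbon to purine rings gave 2 higher of 9 tested, Mthfd2l (0.25) and Aldh1l2 (0.23). The 4 lower were Tyms (-0.18), Shmt1 (-0.16), Mthfd1 (-0.15) and Shmt2 (-0.08). In this list 66.7% were called, beside 38.8% of all genes tested.

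**Figure D5:**
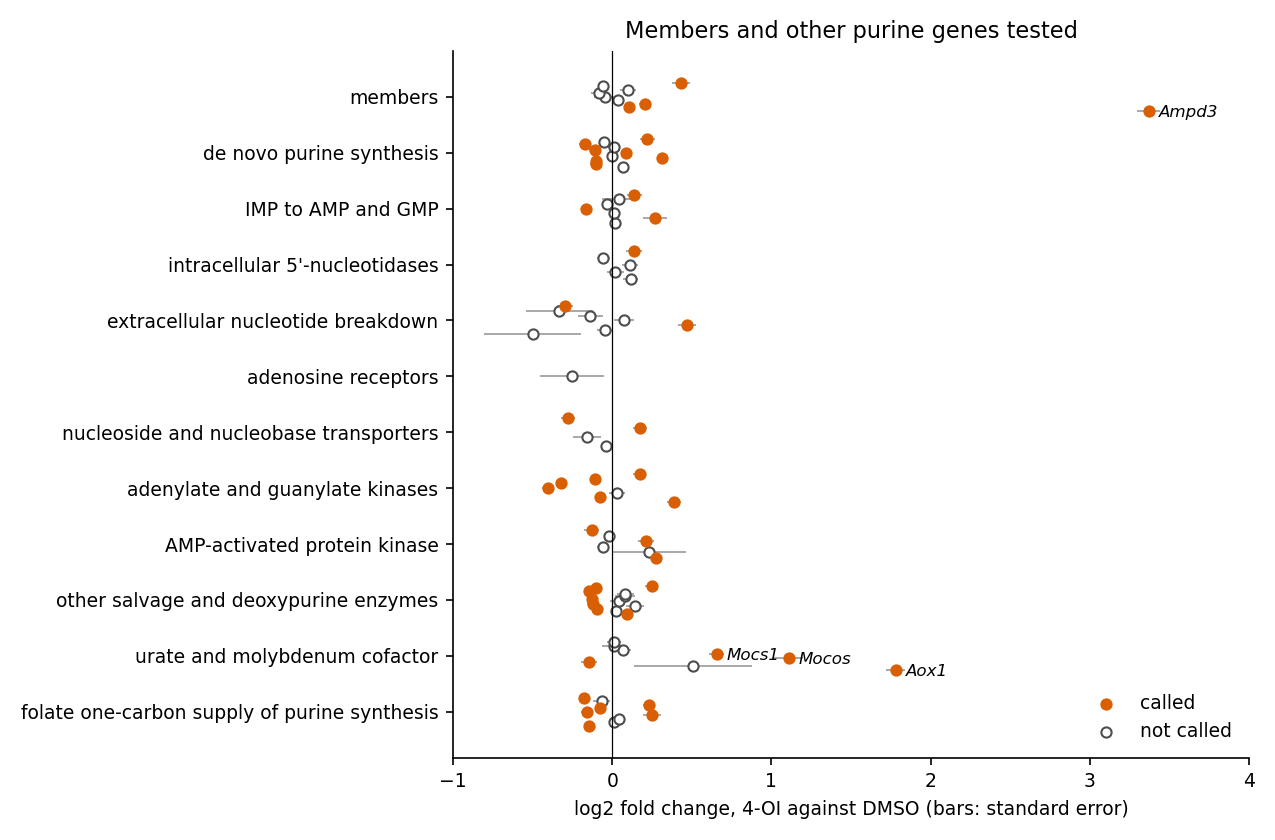
Log2 fold change of 4-OI against DMSO (horizontal axis, bars are standard errors) for the members tested and for the tested genes of each purine list, filled where called and open where not. Ampd3 stands at 3.37, followed by Aox1 at 1.78, Mocos at 1.11 and Mocs1 at 0.66, and the other points lie between -0.50 and 0.51.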

How the data were processed

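RNA of 8 libraries (4 DMSO, 4 4-OI) was read from both ends on a NextSeq, per the labels' protocols. The submitters' processing notes name RSEM 1.3.3 and STAR 2.7.8a, besides MultiQC 1.7, FastQC 0.11.8 and cutadapt 2.3, and the build GRCm38, without saying what each did. The authors deposited expected counts per gene, which were whole numbers in every cell and were used as they stood. The authors also deposited TPM, which relate counts to transcript length within a library, and FPKM, which relate them to length and depth. The annotation release and strand setting were not stated, so reads of overlapping genes may be mixed.

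Groups and replicate numbers came from the titles. Counts were fitted with edgeR 4.0.16 in R 4.3.3 (filterByExpr with a minimum count of 10, TMM, two-sided quasi-likelihood test between the groups). A gene counted as called when its p, adjusted over 13531 genes by the Benjamini-Hochberg method, was under 0.05. Where 114 symbols stood on several rows, none was a member. TPM and FPKM were tested with limma 3.58.1 on log2(value + 1). Genes below the filter with at least 10 summed counts were compared by exact permutation over 70 arrangements. Alternatives were DESeq2 1.42.0, other scalings, no filter, GC and length correction (values for 99.90% of genes), each library left out, and a replicate block. The procedure was tested on simulated data. Between libraries of a group, chi-square divided by its degrees of freedom was 1.887 to 4.802, above sampling noise. This ratio does not show whether the libraries were separate cultures. Each library counted once in the fit.

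The members and lists were chosen with earlier results of these data known. Named genes were the members, Ampd1, the 5 closest patterns to Ampd3, up to 4 called genes per list by size of change, the 2 nearest protein-coding genes on each side of Ampd3, and treatment checks (Nqo1, Hmox1, Slc7a11 with a log2 fold change of 2.43, and Gclm with 2.41). Further genes were named after their values were seen. A list member that was counted is not reported here by name. Promoter windows are those of RefSeq on GRCm38.p6, found for 9 of 10 members and not for Xdh. Positions are those of GENCODE release M21.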

Additional observations from a re-analysis of the deposited data

Results flagged for a closer look

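In 5 of 56 groups of 4 libraries examined, 1 library stood apart from the other 3 by Dixon's ratio of gap to range at its critical value for 4 samples, where chance gives about 1 in 20 groups. Ampd3 in 4-OI replicate 4 was at 21.11 TPM, below the other 3 at 23.27 to 23.47 TPM (ratio 0.915). Ampd2 in DMSO replicate 1 was at 41.91 TPM, above the other 3 at 37.79 to 38.16 TPM (ratio 0.910). The share of Ampd3 in the AMP deaminase TPM was 35.035% in 4-OI replicate 1, above the other 3 at 34.544 to 34.588%, a gap that is small beside the difference from DMSO (ratio 0.911). DMSO replicate 3 was low for Aprt, at 125.65 CPM (ratio 0.891), and high for Xdh, at 20.84 CPM (ratio 0.862). Without that library the log2 fold change of Xdh was 0.48.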

How the results depend on the processing

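Ampd3, Nt5e and Xdh kept their direction and call in all 17 alternatives, with log2 fold changes of 2.85 to 3.46, 0.19 to 0.22 and 0.37 to 0.48. On the log2(TPM + 1) and log2(TPM + 0.1) scales limma did not call Ampd2 (0.1262 and 0.1290). Hprt became called without the filter on low counts (0.1086), and leaving out a library moved it between 0.0519 and 0.1541 and Aprt between -0.0742 and -0.0492, so that 0 to 1 members were called lower. As a share of counts without length, Ampd3 was 28.31% of the family in 4-OI. Over all genes, 1620, 1615 and 1535 were called lower on log2(TPM + 1), log2(TPM + 0.1) and log2(FPKM + 1), against 2646 by edgeR, and in the purine lists 13, 13 and 12 against 22. Prkag2 changed sign on these 3 scales (0.0321, 0.0333 and 0.0397), and so did Adk (-0.0381, -0.0385 and -0.0296). The causes were not tested. Same-numbered libraries deviated together with correlations of only -0.078 to 0.087, so the numbers do not pair them. A replicate block gave 2525 higher and 2618 lower genes, 4 members called and 19 higher and 22 lower purine list genes. Depth limits Ampd1, Gda and the other genes under the filter.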

Other observations

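Genes outside purine metabolism were compared in 2 further lists drawn up after the data had been seen. Of 4 other molybdenum enzymes, 2 could be tested. Suox, sulfite oxidase, rose from 13.4 to 16.4 CPM, with a log2 fold change of 0.29 (adjusted p = 0.000294, edgeR), and Mtarc2 was not called.

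Of 22 genes of pyrimidine synthesis, salvage and breakdown, 20 were tested, of which 3 were higher and 6 lower (45% called, beside 38.8% of all genes tested), with a median log2 fold change of -0.05. Cmpk2, a mitochondrial nucleotide kinase known as an interferon-stimulated gene, fell by 1.95 on the log2 scale, from 3.797 to 0.977 CPM. Upp1, uridine phosphorylase, fell by 0.62, from 49.9 to 32.6 CPM. The CTP synthases moved in opposite directions, with Ctps at -0.36 (adjusted p = 2.67e-10, edgeR) and Ctps2 at 0.40 (adjusted p = 6.47e-08, edgeR). Tk1, thymidine kinase of replicating cells, fell by 0.28, while Umps and Dut were lower by -0.16 each. The smaller increases of Uckl1 (0.18) and Tk2 (0.19) lost their calls without 4-OI replicate 1 for Uckl1 (adjusted p = 0.052, edgeR) and without any 1 of DMSO 1, DMSO 3 or 4-OI 3 for Tk2 (adjusted p = 0.0559 to 0.0752, edgeR). Neither was called by DESeq2 or by limma on the TPM and FPKM scales. Cad became called without any 1 of DMSO 3 or 4-OI 2 (-0.09), and Cda without 4-OI replicate 3 (-0.34).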
